A study of Mus musculus with 4 samples.

Results

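T cells of mouse hindlimb muscle were taken from 4 single-cell RNA libraries as the barcodes with at least 2 unique molecular identifiers (UMIs) of Cd3e, Cd3d, Cd3g and Trac together. A barcode with 3 or more UMIs of the endothelial genes Pecam1, Cdh5, Egfl7 and Cldn5, or with 2 or more of the B cell genes Cd79a and Ms4a1, was left out. This rule found 204 T cells among 6544 kept barcodes. All libraries came from male C57Bl/6J mice in which a single hindlimb received 3 X-ray fractions of 8.2 Gy from the age of 5 weeks under lead shielding of the body. IR libraries hold cells of that limb and CON libraries those of the shielded opposite limb of the same animals, taken 24 hours after the last fraction or at 56 days. Each library pooled 3 limbs, sorted as live cells with a stained nucleus and with no selection for blood cells, so there is 1 library per group. Values in sets of 4 give first CON 24-hours and its irradiated partner IR 24-hours, then CON 56-days and finally its partner IR 56-days.

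T cells carry a receptor made of an alpha and a beta chain, held at the membrane by the CD3 proteins, which pass the signal inward. CD8 and CD4 are the co-receptors of cytotoxic and helper T cells. Naive T cells move between blood and lymph with the help of Ccr7 and S1pr1, whereas effector and memory cells carry killing proteins and chemokines and can stay in tissue. Lymphocytes are among the most radiation-sensitive cells of the body, and p53 drives much of their death after DNA damage.

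The rule kept 142, 32, 20 and 10 T cells. Their median depth was 5168, 4292.5, 5721 and 6390 UMIs, and their UMIs summed to 804278, 168799, 111992 and 71557. The genes that chose the members had a median of 17, 13, 14.5 and 19 UMIs in a T cell. Just inside the limit, 6, 2, 4 and 2 members had exactly 2 of these UMIs, and just outside it 10, 18, 14 and 4 barcodes had 1. Pairs of libraries shared 1 to 3 barcode sequences among all deposited barcodes, and no T cell barcode was shared.

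The label T cells was checked on Trbc2, the beta chain constant region gene, which the rule did not use. It was found in 93.7% (88.3 to 97.1), 90.6% (74.98 to 98.0), 75% (50.9 to 91.3) and 80% (44.4 to 97.5) of members, against 0 of 238, 0 of 101, 0 of 73 and 0 of 60 B cell barcodes. B cells had median depths of 3133, 3224, 3172 and 3043.5 UMIs. All intervals in parentheses are 95% intervals for counting error, and they do not cover differences between animals, which 1 library per group cannot show. A UMI of the Cd3 genes or Trac was found in 0% to 1.67% of B cells and in 0% to 0.628% of endothelial barcodes. Both classes were limited to barcodes with under 2 of these UMIs, which partly fixes this check. The limit left out 4, 5, 0 and 0 barcodes with 3 or more endothelial UMIs, and 0 with 2 or more B cell UMIs in each library.

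Some members went against the label. In CON 56-days, 5 of 20 members held 773 to 3440 UMIs of 11 neutrophil genes, 2 or 3 UMIs of the genes that chose them, and no UMI of a receptor beta chain. Of their choosing UMIs, 10 were of Cd3d and 1 of Cd3g. Barcodes rich in pericyte and smooth muscle RNA numbered 2 in CON 24-hours, with 149 and 304 UMIs of 8 mural genes, and 1 in IR 56-days, with 131. Members with a receptor beta chain UMI and without such foreign RNA numbered 137, 31, 15 and 9, and they are called clean members. IR 24-hours held no barcode with 20 or more UMIs of the neutrophil or mural genes. Clean members were not limited in myofibre or myeloid RNA. Members with 20 or more myofibre UMIs numbered 0, 1, 1 and 0, with 32 in IR 24-hours and 144 in CON 56-days. Those with 20 or more myeloid UMIs numbered 1, 0, 5 and 0. In T cells, 11 endothelial genes other than Rgcc summed to 90.8, 124.4, 8.93 and 139.7 CPM, where CPM is the count of a gene scaled to the summed UMIs of the library's T cells. The neutrophil genes gave 10747 of the 111992 T cell UMIs of CON 56-days, which lowers the CPM of all other genes there, so levels of that library are given for clean members where this matters.

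T cells made up 10.6% (9.03 to 12.4) of kept barcodes in CON 24-hours, 1.26% (0.864 to 1.77) in IR 24-hours, 1.18% (0.720 to 1.81) in CON 56-days and 1.03% (0.496 to 1.89) in IR 56-days. The CON 24-hours library stood apart, and the intervals of the other 3 overlapped. The share in IR 24-hours was 8.43-fold lower than in CON 24-hours, and the share in CON 56-days was 9.03-fold lower than in CON 24-hours. The 2 shielded libraries thus differed by a similar fold to the irradiated and shielded libraries of 24 hours. At 56 days the irradiated share was 0.877 times the shielded share, with overlapping intervals. Among clean members the shares were 10.3%, 1.22%, 0.882% and 0.929%, so the order at 56 days turned. With every member that held 3 or more UMIs of other cell types' genes left out, they were 2.84%, 0.748%, 0.471% and 0.310%.

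**Figure D1:**
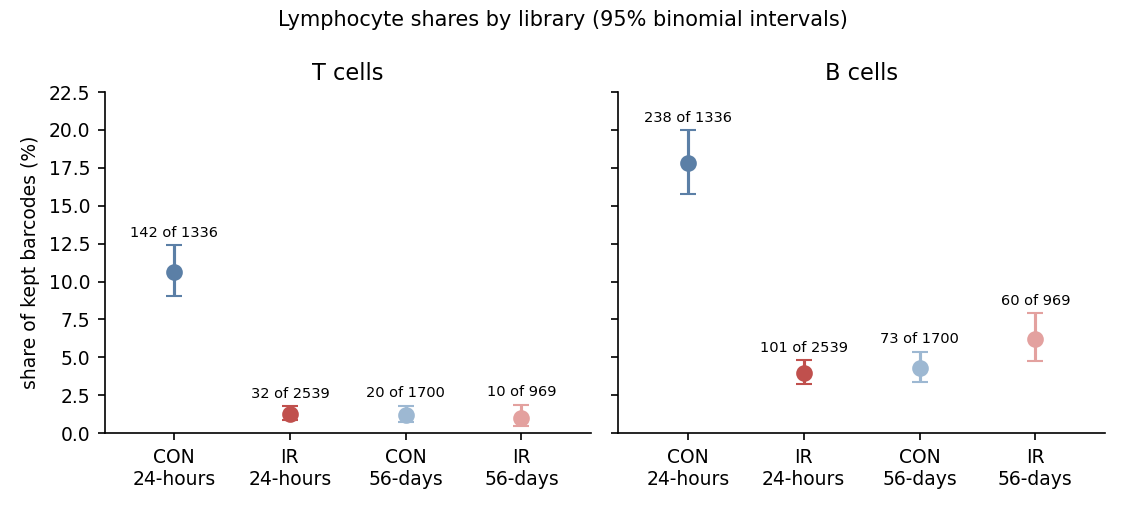
Share of T cells (left) and B cells (right) among kept barcodes in each library, in percent, with 95% binomial intervals and the counts above each point. CON 24-hours is the highest library for both cell types, and T cells lie between 1.03% and 1.26% in the other 3.

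B cells, chosen by at least 2 UMIs of Cd79a and Ms4a1, moved with the T cells in that library. They made up 17.8%, 3.98%, 4.29% and 6.19% of kept barcodes, and endothelial barcodes made up 35.8%, 61.0%, 46% and 50.7%. There were 59.7, 31.7, 27.4 and 16.7 T cells per 100 B cells, so the T cell share stood further apart than that of B cells. With B cells left out of the denominator, T cells made up 12.9%, 1.31%, 1.23% and 1.10%. Erythroid RNA in T cell barcodes was also highest in CON 24-hours, at 230.02 CPM against 59.2, 98.2 and 83.8. The part of either in the T cell share was not tested.

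Among T cells with a co-receptor UMI, most held Cd8a or Cd8b1, but Cd4 was the more thinly detected gene. A UMI of Cd8a or Cd8b1 and none of Cd4 was found in 58 of 142, 17 of 32, 7 of 20 and 5 of 10 T cells, or 40.8% (32.7 to 49.4), 53.1% (34.7 to 70.9), 35% (15.4 to 59.2) and 50% (18.7 to 81.3). Cd4 alone was found in 32, 4, 2 and 2 cells, both kinds in 8, 1, 0 and 0, and neither in 44, 10, 11 and 3. No B cell barcode held a Cd4 or Cd8b1 UMI. In summed UMIs, Cd8b1 had 378, 68, 19 and 24, Cd8a had 182, 40, 17 and 14, and Cd4 had 68, 7, 3 and 3. Cd4 gave 10.8% (8.51 to 13.5), 6.09% (2.48 to 12.1), 7.69% (1.62 to 20.9) and 7.32% (1.54 to 19.9) of co-receptor UMIs. The intervals overlapped in all 4 libraries, so no difference in the balance of CD8 and CD4 cells was detectable at this depth.

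The CON 24-hours library held enough cells to compare its 58 Cd8-only with its 32 Cd4-only T cells. Genes of the T cell lists were ranked by the interval bound of their ratio nearest to 1, and leading ones are given as a description with no test, because they were picked from this ranking. Nkg7, a granule protein gene of killer cells, had 248 UMIs in 47 Cd8-only cells and 0 in Cd4-only cells, at least 37.7-fold lower against a floor of 3 UMIs. Ctsw, a protease gene of cytotoxic cells, stood at 319.1 CPM in Cd8-only and 28.0 CPM in Cd4-only cells, and Klrd1, which encodes the receptor CD94, at 263.0 and 33.6. Ly6c2, a surface protein gene of memory CD8 cells and monocytes, had 83 UMIs in 16 Cd8-only cells and 0 in Cd4-only cells. On the other side, Cd40lg, the helper ligand that activates B cells, was 21.0-fold (9.64 to 54.2) higher in Cd4-only cells, with 375.0 against 17.9 CPM. Tnfrsf4, the costimulatory receptor OX40, had 44 UMIs in 6 Cd4-only cells and 1 in Cd8-only cells. Ctla4, an inhibitory receptor of activated and regulatory cells, had 40 UMIs in 5 and 6 UMIs in 4 cells, and Icos, another costimulatory receptor, stood at 235.1 against 46.0 CPM. Ccl5 ranked second on the CD8 side with 169 UMIs in 3 cells and 0 in Cd4-only cells. On the CD4 side Ly6a, Cd44 and Capg ranked above Icos, at 7.23-fold (3.48 to 16.5), 10.4-fold (3.46 to 42.1) and 5.98-fold (2.91 to 13.2). The 44 cells with neither co-receptor were shallower, at a median of 4378 UMIs against 6240.5 in Cd8-only cells, and 39 of them had a receptor beta UMI.

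Receptor and signalling transcripts were present in all libraries. In clean members Trbc2 stood at 2046 (1947 to 2148), 1534 (1353 to 1733), 1820 (1545 to 2131) and 2347 (1996 to 2741) CPM. Of the 159 UMIs of IR 56-days 110 were in 1 barcode of 22301 UMIs, and without barcodes over 10000 UMIs Trbc2 stood at 2075, 1825, 1820 and 1078 CPM, so that library turned from highest to lowest. Trbc1, the other beta chain constant gene, stood at 965.0, 755.1, 446.3 and 1136. Lck, the kinase that starts receptor signalling, had 484.4, 374.6, 281.9 and 295.2 CPM, and Lat, an adaptor further down the same path, had 403.0, 214.1, 187.9 and 309.9. CON 24-hours was the highest library for Lck and Lat. Cd28, the main costimulatory receptor of naive cells, stood at 391.6, 321.1, 352.3 and 103.3 CPM, lowest in IR 56-days.

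Naive and recirculating transcripts were lowest in the T cells of IR 56-days, and effector transcripts were highest there. In clean members the median cell held 6.37, 7.92, 4.92 and 2.43 UMIs of the 13 naive genes per 1000 of its UMIs. The lowest and highest cells were at 0.259 and 15.1 in CON 24-hours, 1.51 and 17.5 in IR 24-hours, 0.445 and 9.52 in CON 56-days, and 0.0448 and 9.67 in IR 56-days. Cells of the libraries overlapped widely, and 101 of 137, 24 of 31, 7 of 15 and 2 of 9 lay over 5 UMIs per 1000. The 22 effector and cytotoxic genes had medians of 0.438, 0.432, 1.13 and 4.33 UMIs per 1000, with 3 of 137, 1 of 31, 2 of 15 and 3 of 9 cells over 5. For these genes the highest cells were at 28.5, 12.1, 7.68 and 66.7.

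**Figure D2:**
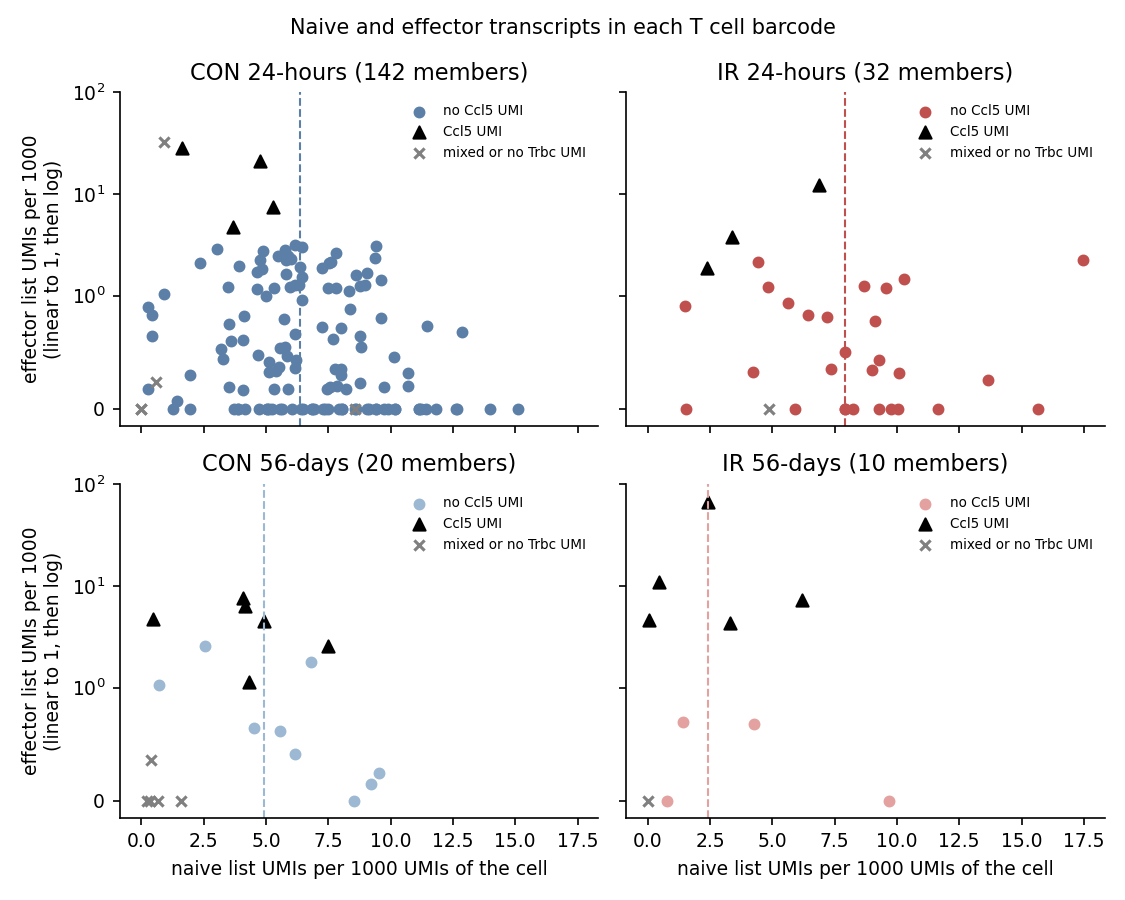
Each point is a T cell barcode, with UMIs of the naive list (x) and of the effector list (y, linear to 1 and then logarithmic) per 1000 of its UMIs, and the dashed line is the naive median of clean members. Triangles are clean members with a Ccl5 UMI (4, 3, 6 and 5 cells) and crosses are members rich in neutrophil or mural RNA or with no receptor beta UMI.

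Ccl5, Nkg7 and Id2 belong to the effector list, so their levels describe that list and are no separate support. Ccl5 is a chemokine that memory and effector T cells store and release. It was found in 5 of 142 T cells of CON 24-hours (3.52%, 1.15 to 8.03), 3 of 32 of IR 24-hours (9.38%, 1.98 to 25.02), 6 of 20 of CON 56-days (30%, 11.9 to 54.3) and 5 of 10 of IR 56-days (50%, 18.7 to 81.3). B cells held it in 0, 0, 0 and 1 barcode and endothelial barcodes in 1, 1, 0 and 2. After thinning each barcode to 1000 UMIs the counts were 5 of 137, 3 of 29, 4 of 20 and 5 of 10. Both libraries of 56 days lay above CON 24-hours with intervals apart, though for CON 56-days they overlapped after thinning (20%, 5.73 to 43.7, against 3.65%, 1.20 to 8.31), and within each time the irradiated and shielded intervals overlapped. Clean cells with Ccl5 held 26 to 110, 6 to 64, 1 to 37 and 12 to 120 UMIs of it. Of these, 3 of 4, 3 of 3, 3 of 6 and 4 of 5 held a CD8 UMI. In clean members Nkg7, also carried by CD8 cells without Ccl5, stood at 328.0, 261.6, 199.7 and 900.2 CPM. Id2, a regulator of effector cells, stood at 92.8, 190.3, 305.4 and 693.6. Both were highest in IR 56-days, where they came from 5 cells, and without barcodes over 10000 UMIs they stood there at 725.9 and 572.0. Id2 of IR 24-hours was then at 75.3 CPM, below the 104.8 of CON 24-hours.

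Of the naive list, Igfbp4, an insulin-like growth factor binding protein gene, had UMIs at 24 hours only. It had 251 UMIs in 76 T cells of CON 24-hours, 38 in 14 of IR 24-hours and 0 in both libraries of 56 days. Against a floor of 3 UMIs per library, this was at least 11.7-fold lower in CON 56-days and at least 7.44-fold lower in IR 56-days than in CON 24-hours. B cells held 1, 0, 2 and 0 UMIs of Igfbp4, while endothelial barcodes held it in every library, at 177.6, 95.9, 103.8 and 131.4 CPM. In clean members Ccr7, the lymph node homing receptor, stood at 446.3, 273.5, 223.1 and 73.8 CPM, and Dapl1 at 329.3, 172.4, 82.2 and 73.8. For both, CON 24-hours was above the other 3 libraries with intervals apart, but without barcodes over 10000 UMIs the Ccr7 intervals of the 24-hour libraries overlapped, at 488.1 (437 to 544) and 343.2 (246 to 466). Lef1 and Tcf7, transcription factors of naive and memory precursor cells, had 465.3, 642.2, 411.1 and 88.5 CPM and 433.5, 535.1, 458.0 and 88.5 CPM, lowest in IR 56-days with 6 UMIs in 5 cells for each. Lef1 was also higher in IR 24-hours than in CON 24-hours with intervals apart. Without barcodes over 10000 UMIs IR 56-days was at 132.0 (48.4 to 287) CPM for both genes, an interval that for Lef1 touches that of CON 56-days (286 to 572). Cd40lg stood at 197.1, 124.9, 23.5 and 14.8 CPM. Between the times, the age of the mice, the days since irradiation and the preparation cannot be told apart.

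Other T cell states were rare. Ly6c2 was found in 16, 6, 9 and 4 T cells, at 103.2, 219.2, 625.0 and 559.0 CPM, but 4 of the 9 in CON 56-days were neutrophil-rich barcodes. Foxp3, the transcription factor of regulatory T cells, was found in 2, 1, 4 and 0 cells, and 0 of 10 cells allows a share of cells with a UMI of up to 30%, taken as 3 counts of the total. Gzmb and Cx3cr1, genes of killer cells, had 0 UMIs in all 4 libraries, and Gzma had 25, 0, 0 and 1. The inhibitory receptor gene Pdcd1 had 8, 3, 0 and 2 UMIs and Havcr2 had 0 in each. Rag1 and Rag2, the recombinase genes of immature lymphocytes, had 0 UMIs in all 4 libraries, and Ptcra, the pre-T cell receptor alpha gene, had 1 UMI in CON 24-hours. Gamma or delta receptor chain UMIs were found in 5, 1, 2 and 2 cells.

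For the comparison of irradiated with shielded limbs, UMIs were summed over the 142 and 32 T cells of 24 hours, and 4974 genes with at least 20 UMIs counted as measured. A gene was called at least 2-fold apart on the log2 ratio with a prior count of 0.5. With 1 library per group no p-value can be given. In IR 24-hours 458 genes (9.21%) passed 2-fold upward and 353 (7.1%) downward, while 24.4% and 14.7% passed 1.5-fold. The median log2 ratio over all measured genes was 0.15. The higher genes were 56.5% of those called, but 44.0% when mitochondrial, ribosomal and haemoglobin genes were left out of the totals, which moved the median to 0.03, and 45.6% when each cell had equal weight. The 3 IR barcodes over 10000 UMIs carried 28.9% of that library's T cell UMIs, and without barcodes of this size in either library the higher share was 46.4%. At 56 days, and between the shielded libraries, under 25 cells on a side left too few UMIs for a comparison across genes.

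**Figure D3:**
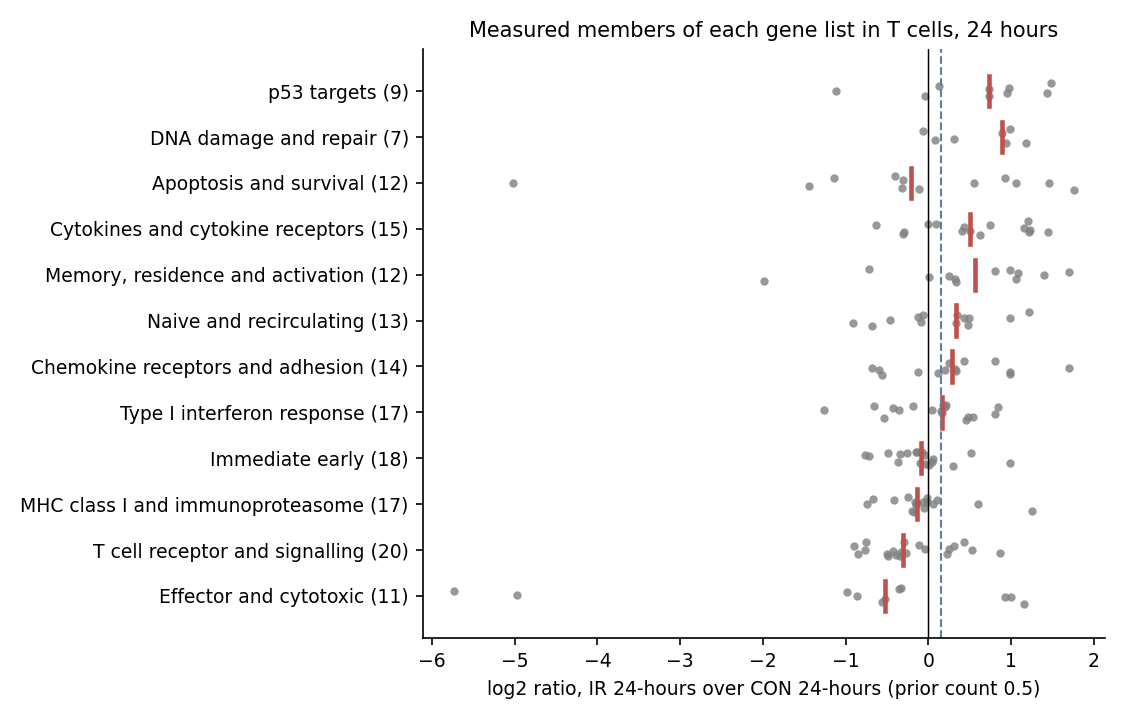
Log2 ratio of IR 24-hours over CON 24-hours in T cells for each measured member of 12 gene lists (points, with the number measured in parentheses), the list's median (red bar) and the median of all measured genes (dashed line, 0.15). Medians of the p53, DNA repair and cytokine receptor lists lie at 0.74, 0.89 and 0.50, and the 3 lowest points are Ccl4, Gzma and Birc3, which had 0 UMIs in IR 24-hours.

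p53 is a transcription factor that is stabilised after DNA damage and switches on genes of arrest, repair and cell death. In T cells 9 of 32 listed p53 targets were measured, of which 2 were at least 2-fold higher and 1 was lower by that much in IR 24-hours. The shares over all measured genes were 9.21% and 7.1%, and these counts are too few to set against them. At 1.5-fold, 6 targets were higher and 1 lower, beside 24.4% and 14.7% of all measured genes. The list's median log2 ratio was 0.74 beside 0.15 for all genes. Without barcodes over 10000 UMIs, 4 were at least 2-fold higher and 1 lower. Mdm2, the ubiquitin ligase that limits p53, had 20 UMIs in 19 cells of CON 24-hours, 12 in 10 of IR 24-hours, 6 in CON 56-days and 2 in IR 56-days. Its levels were 24.9, 71.1, 53.6 and 27.9 CPM, a ratio at 24 hours of 2.86-fold (1.27 to 6.14). Trp53inp1, a p53 partner in cell death, had 33, 19, 8 and 4 UMIs, or 41.0, 112.6, 71.4 and 55.9 CPM, a ratio of 2.74-fold (1.47 to 4.97). CON 24-hours was the lowest library for both genes, and the intervals of the 56-day levels overlapped those of both 24-hour libraries. These levels were over all members, neutrophil-rich barcodes included. The p53 list as a whole had 168 UMIs in CON 56-days, but 102 in its clean members. Sesn1, a stress sensor of the sestrin family, was 1.95-fold (1.06 to 3.44) higher with 44 and 18 UMIs. Ccng1, which encodes cyclin G1, was at 1.67-fold (0.817 to 3.22) with 37 and 13 UMIs, and Bbc3, which encodes the death protein PUMA, at 1.68-fold (0.793 to 3.33) with 34 and 12, both with intervals that include 1. Rrm2b, a ribonucleotide reductase subunit gene, had 19 and 8 UMIs, 2.01-fold (0.760 to 4.799), and stood at 0.933-fold with each cell weighted equally.

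Bax, the pore-forming death gene, stood at 151.7 and 165.9 CPM at 24 hours, 1.09-fold (0.698 to 1.66), and Btg2, an antiproliferative gene, at 0.968-fold (0.761 to 1.22). Fas, the death receptor, was the 1 listed target at least 2-fold lower, and had 32 UMIs in 24 cells of CON 24-hours and 3 in IR 24-hours, a ratio of 0.447 (0.0875 to 1.43). Cdkn1a, the gene of the cell cycle inhibitor p21, had 4, 4, 1 and 0 UMIs in T cells and Phlda3, a repressor of Akt, 1, 1, 1 and 2. In the endothelial barcodes of the same libraries Cdkn1a had 595, 14223, 438 and 2976 UMIs, and Mdm2 stood at 53.9, 243.3, 35.9 and 90.3 CPM. Gdf15, a stress cytokine gene with 2739 UMIs in the endothelium of IR 24-hours, had 0 in T cells of all 4 libraries. In B cells Mdm2 stood at 56.2 CPM in CON 24-hours and 40.2 in IR 24-hours, and Trp53inp1 at 70.3 and 77.6.

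Endothelial RNA in T cell barcodes was measured by Fabp4, an abundant capillary gene, with 33, 12, 0 and 2 UMIs. At the endothelial ratio of each gene to Fabp4, the 12 Fabp4 UMIs of IR 24-hours would bring 2.13 UMIs of Cdkn1a, 0.222 of Mdm2, 0.240 of Trp53inp1 and 0.0276 of Sesn1. The counts found there were 4, 12, 19 and 18.

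**Figure D4:**
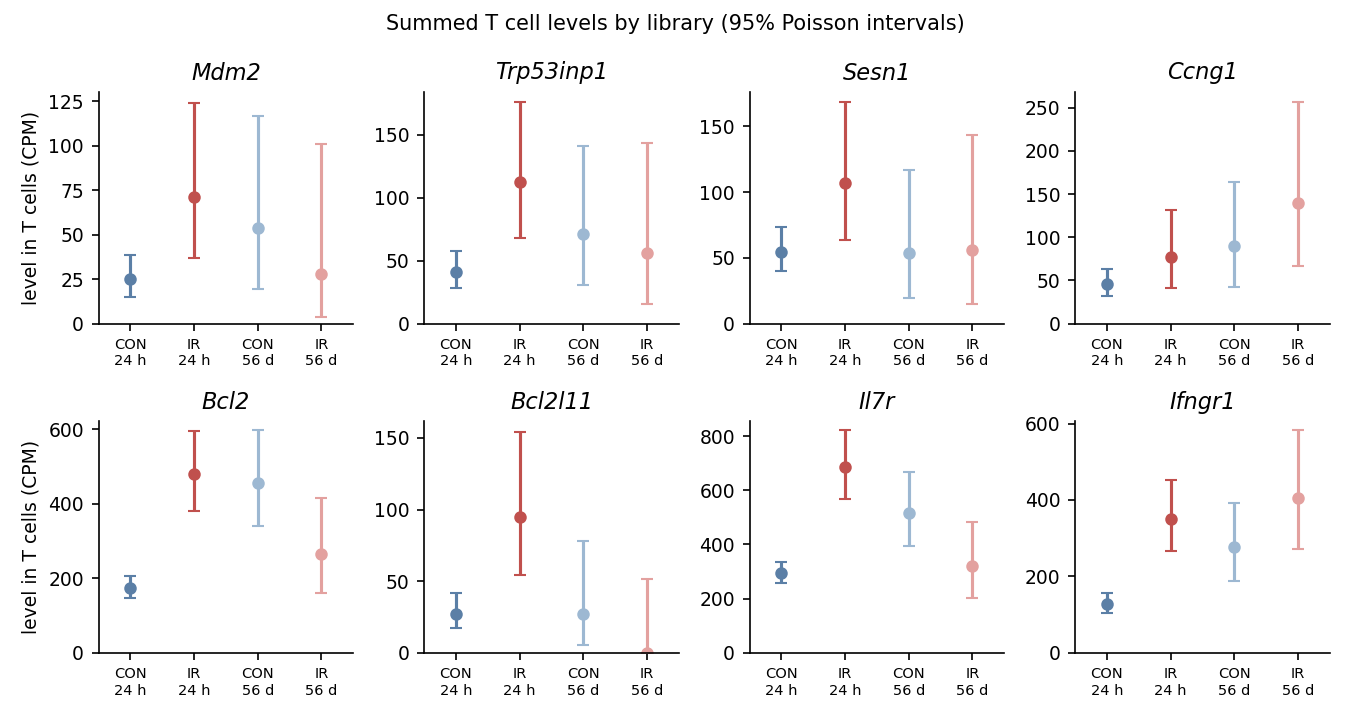
Levels of 8 genes in T cells, as CPM of the summed T cell UMIs, in the 4 libraries, with 95% Poisson intervals. All members are used, neutrophil-rich barcodes of CON 56-days included. CON 24-hours is below IR 24-hours in each panel, and its Bcl2, Il7r and Ifngr1 levels of 174.1, 295.9 and 128.1 CPM are the lowest of the 4 libraries. For Bcl2 and Il7r its interval overlaps that of IR 56-days.

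Promoters of p53 targets were read from the RefSeq table of build GRCm38.p6, as windows from 250 bases before to 50 after each transcript start, to show the letters upstream of p53 targets. The motif searched on both strands was the p53 consensus half-site of 10 letters. It was found in 8.36% of 32851 windows, or in 9.55% of 27025 genes, and in 10 of 26 p53 targets with a window, among them 4 of 7 measured in T cells (Bax, Ccng1, Mdm2 and Sesn1). A match is a description of letters and not a bound site. The stretches shown, of Mdm2 with its called ratio and of Ccng1, whose interval includes 1, lie upstream of the start, on the minus strand, and are written 5′ to 3′ with the half-site in capitals. That of Mdm2 is at chr10:117710895-117710984 with the half-site 186 bases before the start, and that of Ccng1 at chr11:40755422-40755511 with the half-site 185 bases before it.
Mdm2: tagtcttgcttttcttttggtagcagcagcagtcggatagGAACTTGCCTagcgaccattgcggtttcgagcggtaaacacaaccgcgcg
Ccng1: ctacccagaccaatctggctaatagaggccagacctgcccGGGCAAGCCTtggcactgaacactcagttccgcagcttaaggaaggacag

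Survival genes went both ways in the T cells of IR 24-hours, with 3 of 12 measured members at least 2-fold higher, 3 at least 2-fold lower and a median log2 ratio of -0.21. The shares over all measured genes were 9.21% higher and 7.1% lower. Without barcodes over 10000 UMIs the counts were 4 higher and 2 lower of 10, and the median was 0.36. Bcl2, which blocks mitochondrial cell death and keeps resting T cells alive, had 140, 81, 51 and 19 UMIs. Its levels were 174.1 (146 to 205), 479.9 (381 to 596), 455.4 (339 to 599) and 265.5 (160 to 415) CPM, a ratio at 24 hours of 2.76-fold (2.07 to 3.65). CON 24-hours was lowest, with an interval that overlapped that of IR 56-days. Over all members, the Bcl2 level of the shielded limb of 56 days lay within the interval of the irradiated limb of 24 hours. Bcl2l11, the gene of the death inducer BIM, had 22, 16, 3 and 0 UMIs and was 3.47-fold (1.70 to 6.91) higher in IR 24-hours. The third was Xiap, an inhibitor of caspases, at 2.12-fold (0.977 to 4.32). In clean members Mcl1, another protector, stood at 356.0, 517.3, 610.7 and 236.1 CPM, and Pim1, a survival kinase gene induced by cytokines, at 200.9, 386.5, 493.3 and 369.0. On the lower side, Bcl2a1b, a relative of Bcl2, had 66 and 5 UMIs at 24 hours, 0.361-fold (0.113 to 0.886), and Bcl2a1d, its near-identical copy, 22 and 2, 0.433-fold (0.0494 to 1.76). How reads that match both copies were counted was not examined. Birc3, an inhibitor of apoptosis gene, had 26 UMIs in 23 cells of CON 24-hours and 0 in IR 24-hours, at least 1.82-fold lower. In B cells of the same libraries Bcl2 stood at 69.1 and 109.2 CPM and Birc3 at 87.9 and 117.8. Bcl2 lies at chromosome 1, 106538178 to 106714274, and Bcl2l11 at chromosome 2, 128126038 to 128162547, of GRCm38.

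Of the list of cytokines and their receptors, 5 of 15 measured members were at least 2-fold higher in IR 24-hours and 0 lower by that much, with a median of 0.50. Over all measured genes the shares were 9.21% and 7.1%. The 5 were 4 receptor genes and 1 ligand gene, while the receptor genes Il21r and Tgfbr2 had log2 ratios of -0.30 and -0.29. Il7r, the receptor through which interleukin 7 keeps naive and memory T cells alive, had 238 UMIs in 85 cells, 116 in 26, 58 in 10 and 23 in 5. It stood at 295.9 (260 to 336), 687.2 (568 to 824), 517.9 (393 to 669) and 321.4 (204 to 482) CPM, a ratio at 24 hours of 2.32-fold (1.84 to 2.91). Ifngr1, a chain of the interferon gamma receptor, stood at 128.1, 349.5, 276.8 and 405.3 CPM, 2.73-fold (1.95 to 3.79) at 24 hours and 1.96-fold with equal weight for each cell. In B cells Ifngr1 stood at 57.4 CPM in CON 24-hours and 77.6 in IR 24-hours. Il7r went the other way in B cells, with 85 UMIs in 37 cells of CON 24-hours and 0 in IR 24-hours. Ifnar1, a chain of the type I interferon receptor, was 2.32-fold (1.27 to 4.11) higher with 39 and 19 UMIs. Il2rb, the beta chain for interleukins 2 and 15, was 2.25-fold (1.19 to 4.11) higher with 36 and 17, and Tnfsf8, the CD30 ligand gene, 2.38-fold (1.22 to 4.47) higher with 32 and 16. For Bcl2, Il7r and Ifngr1 the shielded limbs differed in the same direction with time, CON 56-days being above CON 24-hours with intervals apart. These levels were over all members, neutrophil-rich barcodes of CON 56-days included. Without barcodes over 10000 UMIs the 24-hour ratios, with the prior count, were 2.98 for Bcl2, 2.23 for Il7r and 2.80 for Ifngr1.

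Genes of DNA damage sensing and repair had a median of 0.89, with 1 of 7 measured members at least 2-fold higher and 0 lower by that much. Over all measured genes the shares were 9.21% and 7.1%, and the counts are too few to set against them. Trp53, the p53 gene, had 84, 34, 15 and 8 UMIs and was 1.93-fold (1.26 to 2.90) higher in IR 24-hours. Parp1, which marks DNA breaks, was 2.31-fold (1.16 to 4.40) higher with 31 and 15 UMIs, but 1.18-fold without barcodes over 10000 UMIs. The list's median was then 0.13.

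Naive genes of the 24-hour libraries showed no common direction, with 1 of 13 (Il7r) at least 2-fold higher, 0 lower by that much and a median of 0.33. Among all measured genes 9.21% were higher and 7.1% lower by that much. Lef1 was 1.41-fold (1.12 to 1.75) and Satb1, a chromatin organiser, 1.39-fold (1.14 to 1.69) higher in IR 24-hours, while Ccr7 stood at 0.623-fold (0.448 to 0.848) and Dapl1 at 0.531-fold (0.349 to 0.782). Of the receptor and signalling list 0 of 20 members passed 2-fold in either direction, and the median was -0.31, or -0.07 without barcodes over 10000 UMIs. Lat was at 0.534-fold (0.368 to 0.756), Thy1, a surface protein of mouse T cells, at 0.552-fold (0.346 to 0.845), Cd5, a brake on receptor signalling, at 0.592-fold (0.352 to 0.945) and Trbc2 at 0.764-fold (0.667 to 0.872). Prkcq, the kinase of the T cell synapse, was 1.83-fold (1.22 to 2.68) higher.

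Interferon, class I and immediate early genes stayed near the median of all genes. Among all measured genes 9.21% were at least 2-fold higher and 7.1% lower. Of type I interferon response genes 0 of 17 were at least 2-fold higher and 1 lower, with a median of 0.16, which was -0.02 with each cell weighted equally. The lower gene was Xaf1, with 24 and 2 UMIs, a ratio of 0.397 (0.0455 to 1.60). Of MHC class I and immunoproteasome genes 1 of 17 was at least 2-fold higher and 0 lower, with a median of -0.13. That gene was Pdia3, a chaperone of the endoplasmic reticulum, at 2.38-fold (1.64 to 3.42), while B2m, the light chain of class I, was at 0.951-fold (0.820 to 1.10). Of immediate early genes 0 of 18 passed 2-fold, with a median of -0.09, or 0.15 with each cell weighted equally. Junb, which responds to tissue dissociation, was at 0.948-fold (0.816 to 1.10), and Fos, which does so too, at 1.03-fold (0.741 to 1.40). Dusp2, a phosphatase gene of activated lymphocytes, stood lower at 0.589-fold (0.435 to 0.782). Of chemokine receptor and adhesion genes 1 of 14 (Cxcr6) was at least 2-fold higher and 0 lower, with a median of 0.28. Itga4, the integrin chain for crossing venules, was at 1.99-fold (1.28 to 3.02).

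Effector genes were scarce at 24 hours, with 11 of 22 measured, 1 (Il2rb) at least 2-fold higher, 2 (Ccl4 and Gzma) lower and a median of -0.53, which was the same with genes at 0 UMIs set to their bound. Ccl4, a chemokine gene of activated cells, had 43 UMIs in 4 cells of CON 24-hours and 0 in IR 24-hours, at least 3.01-fold lower, and 41.9% of the 43 were in 1 barcode. With members of at least 1 marker UMI the direction of Ccl4 and Gzma turned and the list's median was 0.28. Of memory, residence and activation genes 4 of 12 were at least 2-fold higher and 1 lower, with a median of 0.56, or 0.04 without the top 5% of doublet scores. The shares over all measured genes were 9.21% higher and 7.1% lower. Ly6c2 had 83 and 37 UMIs, 2.12-fold (1.40 to 3.17), and Rgs1, a brake on chemokine signalling, 50 and 22, 2.10-fold (1.21 to 3.53) but 1.14-fold with each cell weighted equally. Itgae, the gut and skin residence integrin CD103, had 23 and 13 UMIs, 2.69-fold (1.25 to 5.54), and 1 and 0 at 56 days. Cxcr6, a chemokine receptor of resident cells, had 20 UMIs in 13 cells and 14 in 2, and its direction turned without barcodes over 10000 UMIs and without the top 5% of doublet scores. The lower gene was Tnfrsf4, with 78 UMIs in 11 cells and 4 in 2, 0.244-fold (0.0650 to 0.651). Tnfrsf4 was also the 1 of 5 measured regulatory genes that stood lower, with 0 higher and a median of -0.37, or 0.26 without barcodes over 10000 UMIs. Of 4 measured inhibitory receptor genes 1 was at least 2-fold higher (Cd160) and 1 lower (Cd200), with 10 and 1 UMIs in IR 24-hours, and of 2 measured precursor genes 0 were higher and 1 lower (Cd1d1, with 3 UMIs there).

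The genes furthest higher in IR 24-hours rested on 2 barcodes. Of cell cycle genes 8 of 12 measured were at least 2-fold higher and 0 lower, with a median of 1.53, beside 9.21% and 7.1% of all measured genes. However, a single barcode of 13997 UMIs held 381 of the library's 706 cell cycle UMIs. It held 21 of 22 Mki67 UMIs and 21 of 24 Top2a UMIs, both genes of dividing cells, 59 of 81 of Stmn1, and 130 of 134 of Hist1h1b, a linker histone gene of S phase. It had 18 receptor beta UMIs, 1 of Cd8a and 6 of Ccl5. Without barcodes over 10000 UMIs, 0 of 7 measured cell cycle genes were at least 2-fold higher and 1 was lower, with a median of 0.13, and the direction of Mki67, Tmem176a and Lgals3 turned. Mki67 or Top2a was found in 7, 4, 0 and 1 T cells, and in 0, 1, 0 and 1 after thinning to 1000 UMIs. The 1 cell of IR 56-days had 22301 UMIs, 577 of them of cell cycle genes, 116 of receptor beta chains and 23 of Ccl5.

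**Figure D5:**
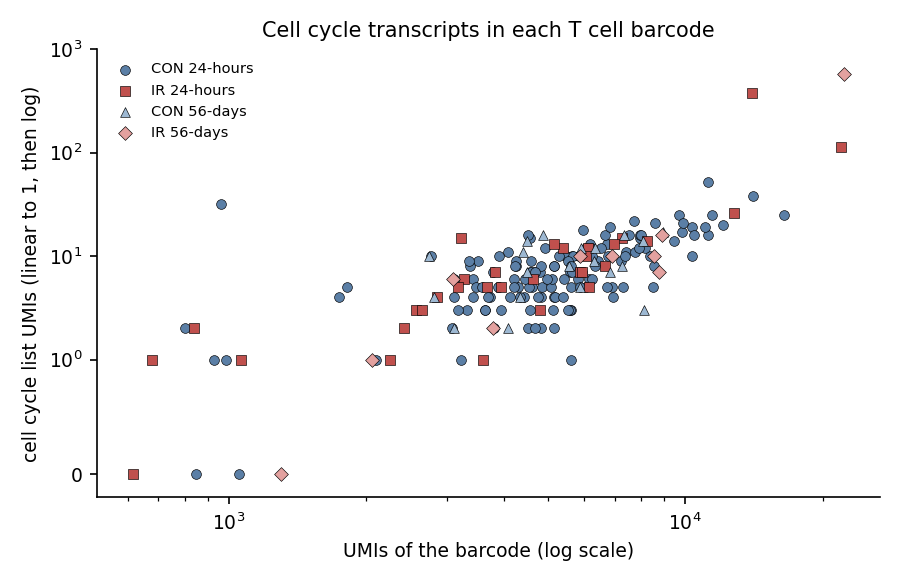
Each point is a T cell barcode, with its total UMIs (x, logarithmic) and its UMIs of the 23 cell cycle genes (y, linear to 1 and then logarithmic). The barcodes at 381 and 113 cell cycle UMIs (IR 24-hours) and at 577 (IR 56-days) lie above all others.

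The other barcode, of 21919 UMIs, held 26 of 26 Tmem176a UMIs, 36 of 37 of Tmem176b and 21 of 27 of Lgals3, which encodes galectin 3. Tmem176a and Tmem176b are ion channel genes known from type 17 T cells. Of the type 17, gamma delta and innate-like list 3 of 4 measured genes were at least 2-fold higher and 0 lower, but 0 of 2 without barcodes over 10000 UMIs. Among all measured genes 9.21% were higher and 7.1% lower by that much. The same barcode had 19 of 24 UMIs of Maf, a transcription factor of type 17 cells, and 4 UMIs each of the gamma chain genes Tcrg-C1 and Tcrg-C4. It also had 61 receptor beta UMIs and 14 of Trac, and no CD4 or CD8 UMI. A barcode of IR 56-days, with 8563 UMIs, had 22 UMIs of Tmem176b, 13 of Trdc, the delta chain constant gene, 8 of Tcrg-C1 and 19 of Cxcr6, with 9 receptor beta UMIs and 0 of Trac. Il17a had 0 UMIs in all 4 libraries.

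The genes furthest lower in IR 24-hours were of several kinds. Tpm2 and Cald1, contractile genes with 90 and 39 UMIs in CON 24-hours and 1 and 0 in IR 24-hours, had 66.7% and 82.1% of the CON UMIs in 1 barcode, and mural RNA summed to 456 and 2 UMIs in the T cells of these libraries. Parl, a mitochondrial protease gene, had 39 UMIs in 38 cells of CON 24-hours and 0 in IR 24-hours, at least 2.73-fold lower, with 4 and 1 UMIs at 56 days. It did not differ so in other cells, at 51.6 and 34.5 CPM in B cells and 55.9 and 47.6 in endothelium at 24 hours. Isyna1, which makes inositol phosphate, had 37 UMIs in 28 cells and 0, and Gpank1 35 in 27 cells and 0. Pkp3, a plakophilin gene, had 72 UMIs in 44 cells and 2 in 2, a ratio of 0.132 (0.0157 to 0.496). Izumo1r, which encodes the folate receptor FR4 of helper and regulatory cells, had 82 UMIs in 28 cells and 3 in 3, a ratio of 0.174 (0.0352 to 0.528), beside the Cd4 ratio of 0.490 (0.190 to 1.07).

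At 56 days the 20 and 10 T cells allow levels only, given over all members unless clean members are named. Mdm2 had 6 and 2 UMIs, Trp53inp1 8 and 4, Sesn1 6 and 4 and Cdkn1a 1 and 0 in CON 56-days and IR 56-days, with overlapping intervals. Bax stood at 53.6 (19.7 to 117) and 265.5 (160 to 415) CPM, with intervals apart over all members, but 9 of its 19 UMIs in IR 56-days were in 1 barcode, and among clean members it was at 70.5 (25.9 to 153) and 250.9 (146 to 402), with overlapping intervals. Btg2 stood lower in IR 56-days, at 669.4 (507 to 867) and 295.2 (180 to 456) CPM among clean members, but at 440.0 (269 to 679) there without barcodes over 10000 UMIs, where the intervals overlapped. Ccng1 had 10 UMIs in each, or 89.3 (42.8 to 164) and 139.7 (67.0 to 257) CPM. A level under 26.8 CPM in CON 56-days or 41.9 CPM in IR 56-days lies below 3 UMIs. Ccl5 stood at 875.1 and 3186 CPM, from 6 and 5 cells, and Lef1 at 312.5 (218 to 435) and 83.9 (30.8 to 182). A single cell held 120 of the 228 Ccl5 UMIs of IR 56-days. The naive list summed to 4241 and 2250 CPM, or 5356 and 2376 in clean members, and the effector list to 2107 and 5981, or 2760 and 6317 in clean members. In IR 56-days 1 barcode of 22301 UMIs held 31.2% of the T cell UMIs, and the list sums were not taken without it.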

How the data were processed

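Single-cell RNA was measured in 4 libraries by 3' counting. The deposited matrices hold raw UMI counts for 32285 genes, made by the authors with Cell Ranger 5.0.0 on mm10, per the submitters' processing notes. Of 1471, 2763, 1822 and 1030 deposited barcodes, 1336, 2539, 1700 and 969 were kept: those that had no fewer than 200 genes and 500 UMIs and in which mitochondrial genes gave 20% of UMIs or less. Doublets were not removed, and leaving out the top 5% of Scrublet scores in scanpy 1.11.5 was an alternative. UMIs were summed over T cells per library and scaled to their total (CPM). Shares carry exact binomial, levels exact Poisson and ratios exact conditional binomial 95% intervals (SciPy 1.17.1). The ratio code was tested on simulated counts. Clean members and the 10000-UMI limit were set after seeing the data. Members and lists were chosen with earlier results of these data known. Named were the 8 genes furthest higher and lower by the interval bound nearest 1, co-receptors, 5 p53 targets and up to 6 members of each list with most UMIs. Other list members were named after their values were seen. The ranking left out mitochondrial, ribosomal, haemoglobin, sex-linked, predicted, receptor variable, member-rule and other-type genes. Some list members are not reported here.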

Additional observations from a re-analysis of the deposited data

How the results depend on the processing

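No paired analysis was possible because each group is 1 library and no test was made. The 56-day order of T cell shares turned among clean members, 0.882% in CON and 0.929% in IR. The higher and lower genes turned from 458 and 353 to 393 and 480 without top doublet scores, 395 and 457 without barcodes over 10000 UMIs, 332 and 422 with totals without mitochondrial, ribosomal and haemoglobin genes, and 499 and 595 with equal cell weights. The T cell share of CON 24-hours was 8.01% with members that hold no endothelial marker UMI and 2.84% without members holding 3 or more UMIs of myeloid, neutrophil, erythroid, fibroblast, mural or myofibre genes. That of IR 24-hours was 0.748% under either of these settings and 1.97% with at least 1 marker UMI. CON 56-days stood at 2.00% with at least 1 marker UMI and 0.471% without other-type members, and IR 56-days at 0.310% without them. CON 24-hours remained highest under each. After thinning, Cd8-only cells were 32.2% of T cells in CON 24-hours. Genes at least 2-fold higher and lower in IR 24-hours numbered 867 and 748 with at least 10 UMIs per gene, 116 and 57 with at least 50 and 1216 and 729 at 1.5-fold. The p53 list's median stayed between 0.54 and 0.86 under the 12 settings that could be run. Gene comparisons were not run with thinned barcodes, with members free of endothelial UMIs or without other-type members, which left under 25 IR cells, nor at 56 days or between the shielded libraries. Depth limits single genes most in IR 56-days, where 3 UMIs are 41.9 CPM.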
